A study of Mus musculus with 12 samples.

Results

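The unfolded protein response and endoplasmic reticulum (ER) folding genes were followed across 12 liver RNA-sequencing libraries of male C57BL6 mice. The set was a list of 40 genes chosen by name: 15 chaperones and folding enzymes read out by the factors ATF6 and XBP1, 4 sensors and factors, 7 genes of the ATF4/CHOP branch, 7 genes of ER-associated degradation and 7 genes of the translocon and of early processing. All 40 were among the 31253 gene symbols listed, and all 40 exceeded 1 TPM (a relative transcript level that divides out library size and transcript length) in at least 3 of the 12 libraries, as did 12120 symbols in all.

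The 4 groups had 3 libraries each and crossed genotype with treatment. S302A_DEN livers came from knock-in mice that carried the S302A allele of CUGBP1, an RNA-binding protein encoded by Celf1, and that had been injected with diethylnitrosamine (DEN), a liver carcinogen that alkylates DNA, at a dose of 50 µg for each g of body weight when they were 3 weeks old. S302A_Ctrl livers came from untreated knock-in mice, WT_DEN livers from wild-type mice given the same DEN dose, and WT_Ctrl livers from untreated wild-type mice. Livers were taken 30 to 38 weeks after that age, at 33 to 41 weeks by the age label, so the values describe livers long after the injection. The allele changes 1 residue of the protein, so transcript levels give no check of genotype. Whether every library stands for its own mouse is not in the labels, and the p-values then reflect only how these libraries spread, which may be technical.

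Proteins that enter the secretory pathway fold in the ER with the help of chaperones, disulfide isomerases and the calnexin cycle, and hepatocytes, which secrete most plasma proteins, carry a large load of such clients. When unfolded proteins build up, the sensors IRE1 (encoded by Ern1), PERK (Eif2ak3) and ATF6 are released from the chaperone BiP (Hspa5). ATF6 and spliced XBP1 switch on chaperone and degradation genes, whereas PERK slows translation and favours ATF4, which switches on amino acid genes and, with prolonged stress, the factor CHOP (Ddit3). Splicing of Xbp1, cleavage of ATF6 and phosphorylation of PERK are not seen in gene-level transcript values.

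ATF6 and XBP1 act through the ER stress response element (ERSE), spelled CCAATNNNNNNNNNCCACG, to which the factor NF-Y binds at the CCAAT end. Promoters of 34 of the 40 members were found in RefSeq sequences of build GRCm38.p6, and the 250 bases before the start were searched on both strands. The others were Manf, Hyou1, Atf6, Derl1, Sec61a1 and Sec11c. An exact ERSE stood before 9 of the 34, namely 7 of 13 chaperone genes and 2 of 6 degradation genes, against 35 of 27025 genes in all (0.13%). The matched elements are shown because they are the sequence that chaperone genes with different products share, each read 5′ to 3′ on its own strand, with the fixed ends in capitals and the free spacer in lower case.
Hspa5, chr2:34772025-34772043, plus strand: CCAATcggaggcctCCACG
Hsp90b1, chr10:86705638-86705656, minus strand: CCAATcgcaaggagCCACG
Hsp90b1, chr10:86705533-86705551, plus strand: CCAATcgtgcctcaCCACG
Creld2, chr15:88819520-88819538, minus strand: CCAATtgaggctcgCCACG
Calr, chr8:84847075-84847093, plus strand: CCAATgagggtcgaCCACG
Canx, chr11:50325800-50325818, minus strand: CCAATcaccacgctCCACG
Pdia6, chr12:17266491-17266509, plus strand: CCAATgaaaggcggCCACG
Dnajc3, chr14:118937827-118937845, plus strand: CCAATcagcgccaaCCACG
Syvn1, chr19:6046532-6046550, plus strand: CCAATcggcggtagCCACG
Derl3, chr10:75893242-75893260, minus strand: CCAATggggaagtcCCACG

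Hsp90b1 was the member with 2 copies, in opposite orientations. The related ERSE-II, in which ATTGG, 1 free base and CCACG follow each other, stood before Herpud1 at chr8:94386377-94386387 on the plus strand, and before 10 genes in all (0.037%).
Herpud1: ATTGGgCCACG
The XBP1 element TGACGTGG was found before no member and before 0.603% of all genes. The composite element TGATGNAA, read by ATF4 with a C/EBP partner, stood before Atf3, Chac1 and Asns of the ATF4/CHOP branch and before Herpud1. It stood before 1056 genes in all (3.91%), far more often than the ERSE. A match is a stretch of letters and no measure of binding.

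The whole 250-base windows of 3 members are given on the gene's strand with the matched element in capitals, because these genes stand for the 2 branches compared: Hspa5 (chr2:34771840-34772089, plus strand) and Creld2 (chr15:88819396-88819645, plus strand) for the chaperones and Asns (chr6:7693210-7693459, minus strand) for the ATF4 branch. The Creld2 element lies in reverse orientation, so it reads as its complement.
Hspa5: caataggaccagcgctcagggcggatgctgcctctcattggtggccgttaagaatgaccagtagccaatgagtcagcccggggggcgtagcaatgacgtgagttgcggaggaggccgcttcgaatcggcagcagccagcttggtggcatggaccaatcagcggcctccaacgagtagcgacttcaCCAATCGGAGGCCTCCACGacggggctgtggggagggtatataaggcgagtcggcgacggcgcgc
Creld2: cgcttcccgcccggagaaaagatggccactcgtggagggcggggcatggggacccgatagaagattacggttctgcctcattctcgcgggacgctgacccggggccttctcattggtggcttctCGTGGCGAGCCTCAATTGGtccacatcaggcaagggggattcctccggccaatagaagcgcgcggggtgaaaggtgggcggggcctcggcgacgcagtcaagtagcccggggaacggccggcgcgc
Asns: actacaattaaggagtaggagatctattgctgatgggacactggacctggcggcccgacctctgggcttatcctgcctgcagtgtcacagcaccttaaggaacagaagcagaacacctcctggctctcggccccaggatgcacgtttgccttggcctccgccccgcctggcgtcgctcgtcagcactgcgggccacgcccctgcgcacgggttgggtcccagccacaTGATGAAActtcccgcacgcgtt

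**Figure D1:**
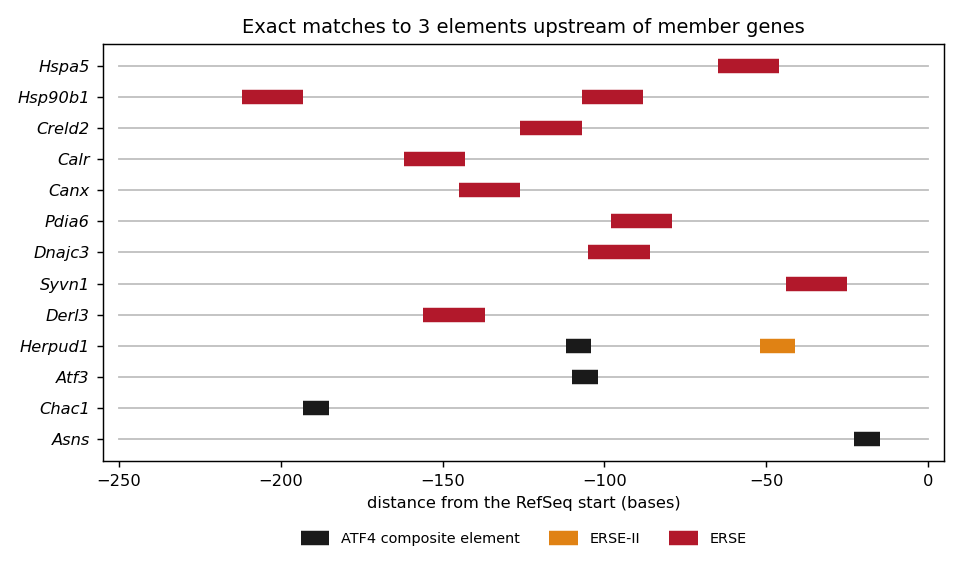
Exact matches to the ERSE, ERSE-II and the ATF4 composite element in the 250 bases before the RefSeq start of 13 member genes, plotted as distance from the start in bases. Each grey line is 1 window and each bar 1 match. The ERSE copies sit between 212 and 26 bases before the start.

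Replicate 3 of S302A_DEN differed in level from the other 11 libraries over most genes, and the main values are given with and without it. It stood above both other S302A_DEN libraries for 10539 of the 12120 tested genes (87.0%), listed 13083 symbols above 1 TPM against 10839 to 11653 in the other libraries, and gave 23.8% of its total to its 20 most abundant genes against 35.9% to 47.6%. Its summed macrophage markers (615 TPM), its summed tumour and fetal liver markers (772 TPM) and its summed stellate cell markers (243 TPM) were the highest of the 12 libraries. Of the 772 TPM, 422 TPM was Ly6d alone, and H19 and Igf2 of that list stood at 1 TPM in all 12 libraries. Of its 6 measured genes, 5 were above both other S302A_DEN libraries in replicate 3. All 10 hepatocyte markers were above 1 TPM. Their sums were 61302 to 74455 TPM in S302A_DEN livers and 54604 to 68993 TPM in S302A_Ctrl livers. They were 81026 to 97421 TPM in WT_DEN livers, above every S302A_DEN liver, and 51482 to 73178 TPM in WT_Ctrl livers. In S302A_DEN replicate 3, 6 of the 10 were below both others of its group and 2 were above both. The part of these markers in the chaperone values was not tested. In bulk liver, fewer cells of a type and less RNA per cell cannot be told apart.

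The chaperone and folding genes made up most of the measured RNA of the set. P4hb, Calr, Hspa5 and Hsp90b1 had the highest mean TPM over the 12 libraries (615, 515, 421 and 399 TPM). The transcription factor Atf3 and the glutathione-degrading enzyme Chac1 had the lowest (2.04 and 1.80 TPM). Summed over the 15 chaperone genes, the level was 3936 ± 297 TPM in S302A_DEN livers against 1940 ± 327 TPM in S302A_Ctrl livers, and 2853 ± 690 TPM in WT_DEN livers against 2507 ± 405 TPM in WT_Ctrl livers (SD, n = 3 each). In single libraries the sum was 3679, 3866 and 4262 TPM in S302A_DEN livers and 1840, 2305 and 1675 TPM in S302A_Ctrl livers. It was 3597, 2729 and 2233 TPM in WT_DEN livers and 2748, 2734 and 2039 TPM in WT_Ctrl livers. In these sums of TPM as deposited, the DEN-treated knock-in livers were above every other library, and the DEN-treated and untreated wild-type livers overlapped. Median-of-ratios scaling divides each library by its median ratio to the gene means over all libraries. Its factor was 1.69 for S302A_DEN replicate 3 and 0.82 to 1.18 for the other libraries. The sums were not scaled, so the place of that library holds for deposited TPM only.

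**Figure D2:**
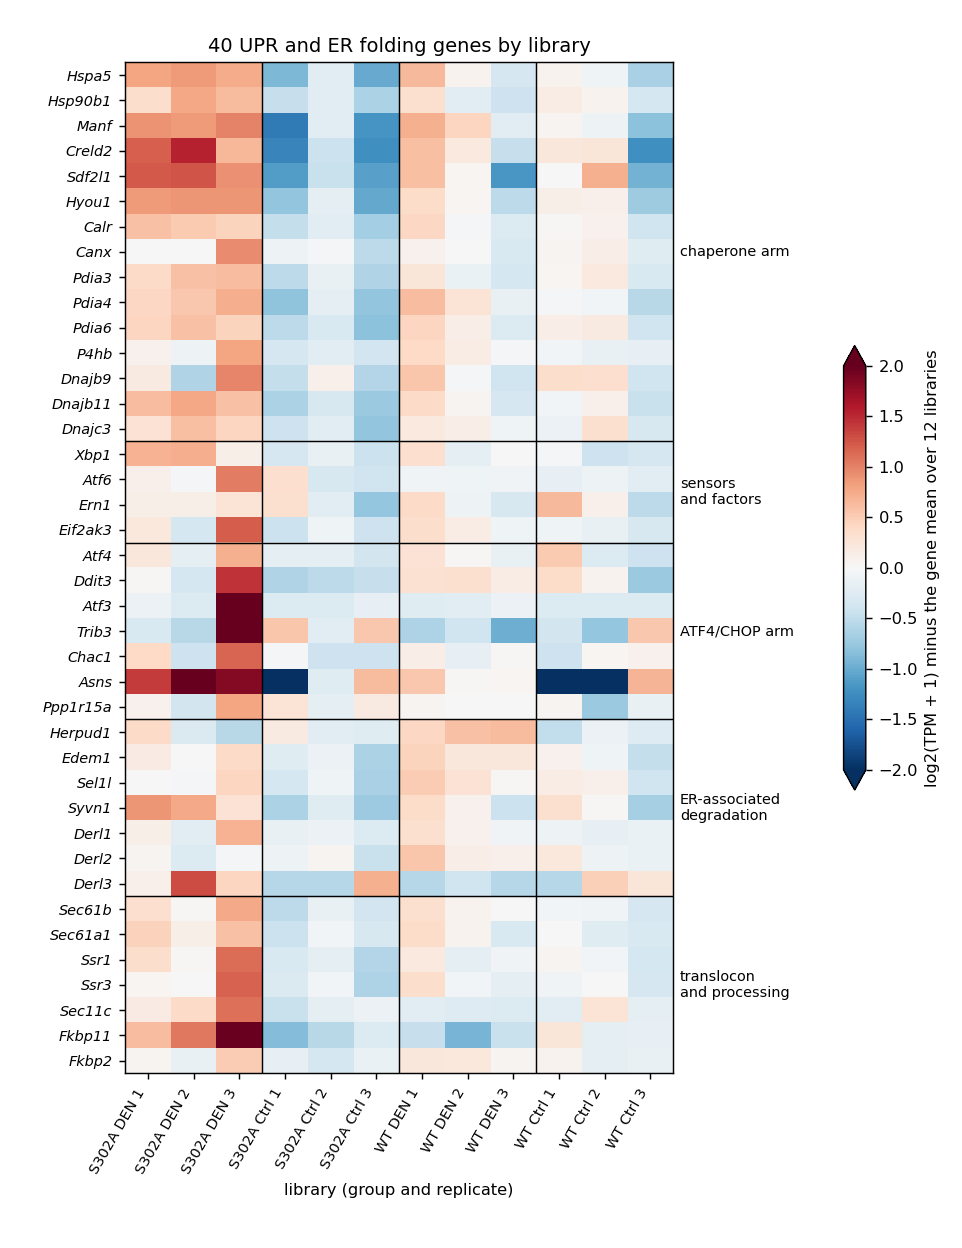
Level of the 40 genes (rows, by role) in each of the 12 libraries (columns, by group and replicate), as log2(TPM + 1) minus the gene's mean over the 12 libraries, with colours limited to values from -2 to 2. Most chaperone rows are red in all 3 S302A_DEN libraries, while 6 of the 7 ATF4/CHOP rows have their highest value in S302A_DEN replicate 3.

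DEN in the knock-in (S302A_DEN against S302A_Ctrl) went with higher chaperone transcripts. Hspa5, Manf, Creld2, Hyou1 and Dnajb11 of the chaperone genes and the prolyl isomerase gene Fkbp11 rose, by 1.22 to 2.13 on the log2(TPM + 1) scale. These were 6 of the 40 members at an adjusted p under 0.05 in limma, with no member lower, while 0.619% of all tested genes were called. All 15 chaperone genes had a higher mean of log values in S302A_DEN livers, with a median difference of 1.04 against 0.27 over all tested genes. In 26 members all 3 S302A_DEN libraries were above all 3 S302A_Ctrl libraries, as in 15.8% of all tested genes. These 26 included 14 of the 15 chaperone genes, 6 of the 7 translocon and processing genes, 3 of the 7 degradation genes, 2 of the 7 ATF4/CHOP genes and 1 of the 4 sensors and factors.

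Without S302A_DEN replicate 3 the chaperone median was 1.05, beside a median over all genes of 0, and 10 members passed the threshold, as did 2.43% of the genes tested. Calr, Pdia6, Xbp1 and Syvn1 joined the 6 named above. With median-of-ratios scaling, which sets the median over all genes to 0.01, the chaperone median was 0.72 and Manf, Fkbp11 and the translocon-associated gene Ssr1 were called, 3 of 40 where 5.37% of all tested genes were. None of the 6 was called when the filter asked for only 1 library above 1 TPM. In a fit of the knock-in libraries alone none of them was called, while Sdf2l1 was. The 6 calls also rested on few libraries. None was left without S302A_Ctrl replicate 1, S302A_Ctrl replicate 3 or WT_DEN replicate 2. Fkbp11 alone was left without S302A_DEN replicate 1, Manf and Fkbp11 without WT_Ctrl replicate 1, Manf, Dnajb11 and Fkbp11 without WT_Ctrl replicate 2, and Hspa5, Manf and Hyou1 without S302A_Ctrl replicate 2. Creld2 lost its call without WT_DEN replicate 3 and without S302A_DEN replicate 2. Sdf2l1 was called without WT_DEN replicate 3, and Sec61b and Ssr1 without S302A_DEN replicate 2.

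**Figure D3:**
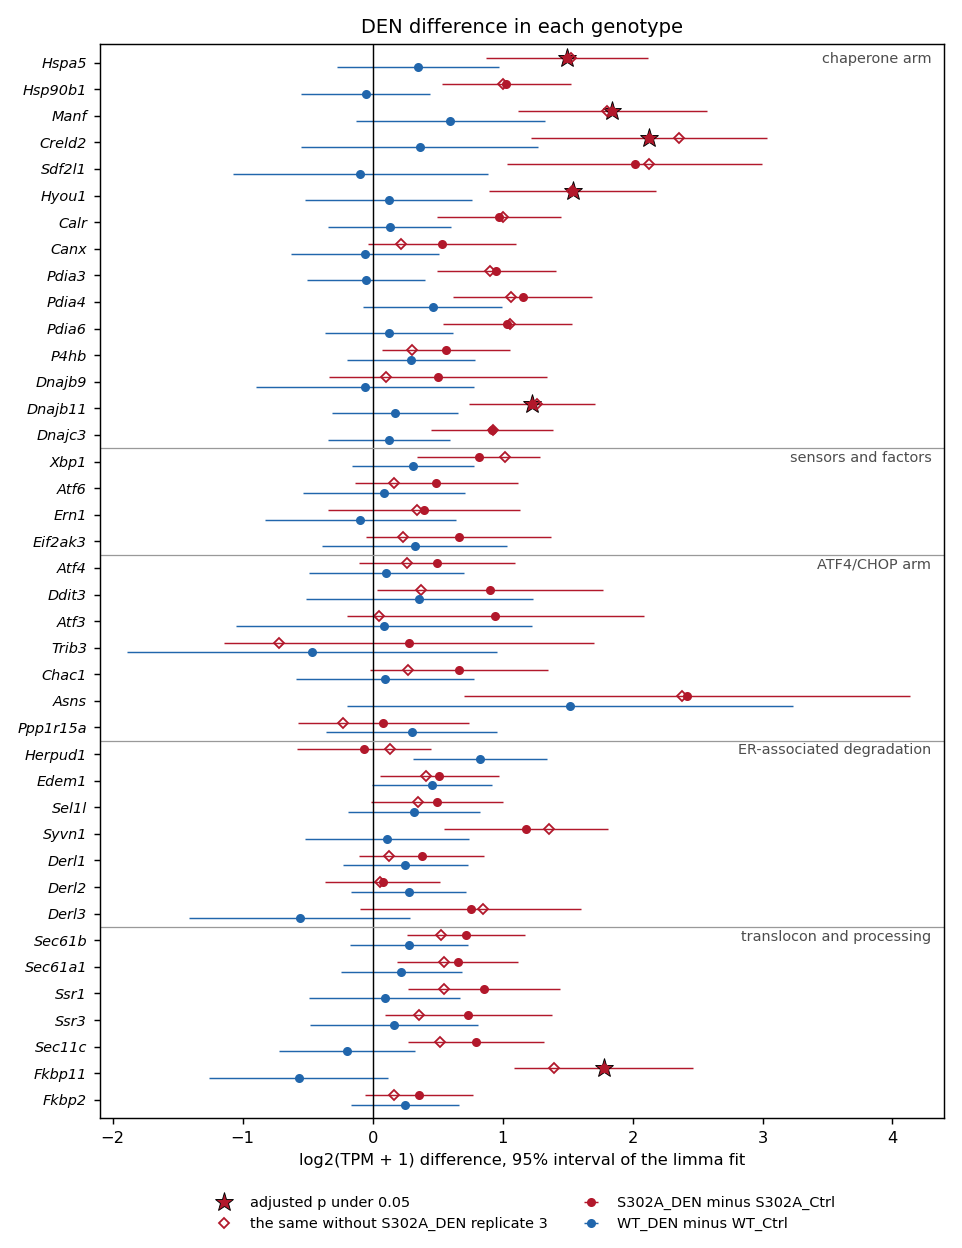
Difference between DEN-treated and untreated livers for each of the 40 genes on the log2(TPM + 1) scale, in the knock-in (red) and in the wild type (blue), with 95% intervals of the limma fit. Stars mark adjusted p under 0.05, and open diamonds give the knock-in difference without S302A_DEN replicate 3. The diamonds stay near the full value for most chaperone genes and move toward 0 for most ATF4/CHOP genes.

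Hspa5 (chr2:34771970-34777547, plus strand), which encodes BiP, the main ER Hsp70 and the brake on the stress sensors, stood at 667, 693 and 643 TPM in S302A_DEN livers and at 206, 333 and 191 TPM in S302A_Ctrl livers. It stood at 601, 404 and 305 TPM in WT_DEN livers and at 402, 363 and 245 TPM in WT_Ctrl livers. In deposited TPM the 3 DEN-treated knock-in livers were close together and above the other 9, and the wild-type groups overlapped. The knock-in difference was 1.5 ± 0.29 (SE; limma adjusted p = 0.0421, and 0.026 to 0.202 over the 19 alternatives). Without S302A_DEN replicate 3 it was 1.52 (limma adjusted p = 0.0343). In the wild type it was 0.35 (limma adjusted p = 0.868). With median-of-ratios scaling Hspa5 was not called in the knock-in.

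Manf (chr9:106838312-106891979, minus strand), a secreted ER-stress protein that binds BiP, stood at 106, 103 and 113 TPM in S302A_DEN livers and at 20.5, 48.8 and 24.4 TPM in S302A_Ctrl livers. It stood at 92.7, 76.2 and 48.7 TPM in WT_DEN livers and at 58.9, 52.5 and 31.5 TPM in WT_Ctrl livers. In deposited TPM all DEN-treated knock-in livers were above every other liver, and the wild-type groups overlapped. Between the knock-in groups it differed by 1.84 ± 0.34 (SE; limma adjusted p = 0.0319, and 0.0169 to 0.18 over the alternatives). Without S302A_DEN replicate 3 it was 1.81 (limma adjusted p = 0.0352). In the wild type it was 0.60 (limma adjusted p = 0.708).

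Creld2 (chr15:88819646-88826683, plus strand), an ER protein with disulfide isomerase activity, stood at 76.2, 96.1 and 52.4 TPM in S302A_DEN livers and at 12.4, 23.9 and 13.3 TPM in S302A_Ctrl livers. It stood at 50.0, 37.3 and 23.4 TPM in WT_DEN livers and at 38.2, 38.8 and 13.4 TPM in WT_Ctrl livers. Here S302A_DEN replicate 3 was the lowest of its group, and the knock-in groups did not overlap. The knock-in difference of 2.13 ± 0.42 was the largest among the called members (SE; limma adjusted p = 0.0432, and 0.0131 to 0.205 over the alternatives). It was 2.36 without S302A_DEN replicate 3 (limma adjusted p = 0.0267) and 0.36 in the wild type (limma adjusted p = 0.925). With median-of-ratios scaling Creld2 was not called in the knock-in.

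Hyou1 (chr9:44379490-44392369, plus strand), the nucleotide exchange factor that helps BiP release its clients, stood at 77.8, 79.9 and 80.1 TPM in S302A_DEN livers and at 24.4, 37.3 and 20.6 TPM in S302A_Ctrl livers. It stood at 55.8, 44.0 and 29.4 TPM in WT_DEN livers and at 46.8, 46.0 and 25.8 TPM in WT_Ctrl livers. In deposited TPM the DEN-treated knock-in livers were nearly equal and the wild-type livers spread widely. For Hyou1 the knock-in difference was 1.54 ± 0.30 (SE; limma adjusted p = 0.0426, and 0.026 to 0.197 over the alternatives). It was 1.53 without S302A_DEN replicate 3 (limma adjusted p = 0.0375), and 0.12 in the wild type (limma adjusted p = 0.987). With median-of-ratios scaling Hyou1 was not called in the knock-in.

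Dnajb11 (chr16:22857845-22879634, plus strand), a J-domain co-chaperone that hands clients to BiP, stood at 77.6, 86.2 and 75.7 TPM in S302A_DEN livers and at 32.0, 39.9 and 29.5 TPM in S302A_Ctrl livers. It stood at 65.5, 52.0 and 39.5 TPM in WT_DEN livers and at 48.1, 53.6 and 36.3 TPM in WT_Ctrl livers. In deposited TPM the knock-in groups were far apart relative to their spread, and the wild-type groups overlapped. Its knock-in difference was 1.22 ± 0.22 (SE; limma adjusted p = 0.0319, and 0.0198 to 0.178 over the alternatives). It was 1.26 without S302A_DEN replicate 3 (limma adjusted p = 0.0198), and 0.17 in the wild type (limma adjusted p = 0.941). With median-of-ratios scaling Dnajb11 was not called in the knock-in.

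**Figure D4:**
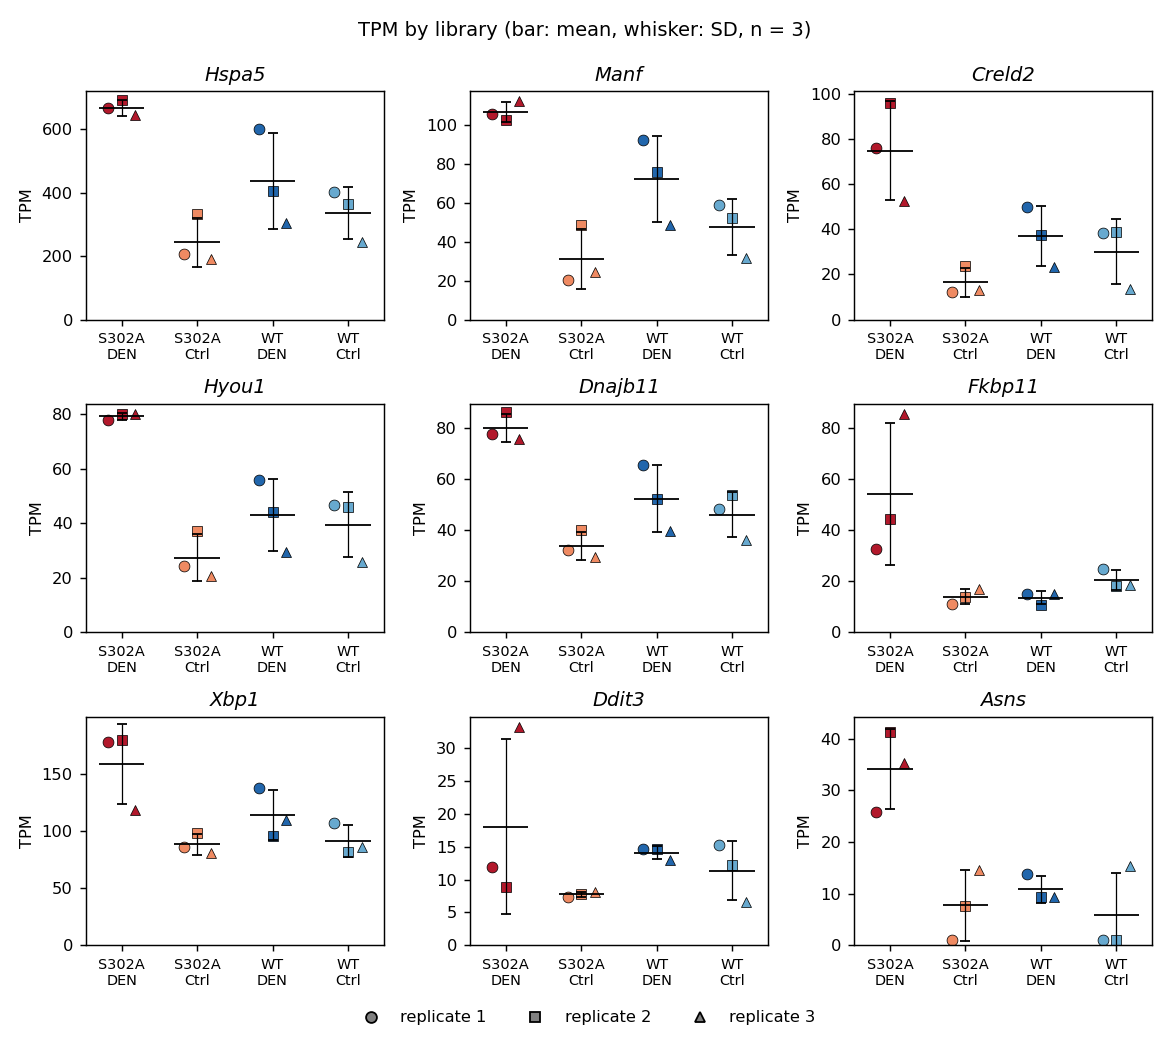
TPM of 9 member genes in each library (symbols by replicate number), with group means and SD (n = 3). In deposited TPM the 3 S302A_DEN libraries sit together above all S302A_Ctrl libraries for the 5 chaperone genes, whereas Ddit3 is high in S302A_DEN replicate 3 alone.

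Among the chaperone genes that did not pass the threshold, the disulfide isomerase gene Pdia4 stood at 113, 124 and 142 TPM in S302A_DEN livers and at 48.4, 74.0 and 48.7 TPM in S302A_Ctrl livers. It stood at 131, 103 and 76.4 TPM in WT_DEN livers and at 83.1, 81.6 and 57.6 TPM in WT_Ctrl livers. The knock-in groups did not overlap, and the wild-type groups overlapped. The differences were 1.15 in the knock-in (limma adjusted p = 0.0597) and 0.46 in the wild type (limma adjusted p = 0.674). Hsp90b1 (the ER Hsp90), Sdf2l1 (a BiP co-factor), the lectin chaperone Calr, the isomerases Pdia3 and Pdia6, and Dnajc3, another BiP co-chaperone, had knock-in differences of 0.92 to 2.02 with limma adjusted p between 0.0629 and 0.0759. Over the same 6 genes the wild-type differences ran between -0.09 and 0.13. The other 3 were the lectin chaperone Canx (0.53), the isomerase P4hb (0.57) and the J-domain gene Dnajb9 (0.50). These differences were 0.22 for Canx, 0.30 for P4hb and 0.11 for Dnajb9 without S302A_DEN replicate 3.

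Chaperone genes with and without an exact ERSE had like values. The 7 with a match had a median knock-in difference of 1.03 and the 6 whose window held none had 1.05. Outside the set, 6 tested genes carried an exact ERSE, and their median was 0.72, against 0.27 over all tested genes. None of those 6 passed the threshold. Their differences ran between -0.83 for Xlr3a and 3.42 for the acyltransferase gene Acnat2 (limma adjusted p = 0.0597), which had 2.57 in the wild type, and the mannosyltransferase gene Alg12 had 1.38 (limma adjusted p = 0.0907).

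Of the sensors and factors none passed the threshold in any comparison. Xbp1, the factor that IRE1 splices, stood at 178, 180.1 and 118 TPM in S302A_DEN livers and at 86.1, 98.6 and 80.4 TPM in S302A_Ctrl livers. It stood at 138, 95.4 and 109.5 TPM in WT_DEN livers and at 107, 81.6 and 85.8 TPM in WT_Ctrl livers. All DEN-treated knock-in livers were above the untreated ones, with replicate 3 the lowest of them. The knock-in difference was 0.82 (limma adjusted p = 0.109), and it passed the threshold without S302A_DEN replicate 3, at 1.02 (limma adjusted p = 0.0182).

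The sensors themselves were low transcripts. Atf6 stood at 8.67, 7.75 and 17.1 TPM in S302A_DEN livers, 10.3, 6.17 and 5.83 TPM in S302A_Ctrl livers, 7.58, 7.49 and 7.51 TPM in WT_DEN livers and 7.02, 7.35 and 6.73 TPM in WT_Ctrl livers. Ern1, which encodes IRE1, stood at 8.5, 8.5 and 9.67 TPM in S302A_DEN livers, 10.0, 6.50 and 4.13 TPM in S302A_Ctrl livers, 10.5, 7.16 and 6.03 TPM in WT_DEN livers and 12.8, 8.43 and 5.14 TPM in WT_Ctrl livers. Both overlapped between the knock-in groups. Eif2ak3, which encodes PERK, stood at 5.11, 3.13 and 11.2 TPM in S302A_DEN livers, 2.94, 3.97 and 2.98 TPM in S302A_Ctrl livers, 5.77, 4.83 and 4.0 TPM in WT_DEN livers and 3.98, 3.76 and 3.26 TPM in WT_Ctrl livers. Its knock-in groups overlapped too, and replicate 3 was the high library for Atf6 and Eif2ak3. The knock-in differences of Atf6, Ern1 and Eif2ak3 were 0.49, 0.40 and 0.66, and 0.16, 0.34 and 0.23 without that library.

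In the ATF4/CHOP branch the knock-in differences were lower without S302A_DEN replicate 3, that of Asns only slightly. None of the 7 genes passed the threshold in limma in any of the 6 comparisons. The median knock-in difference was 0.67 against 0.27 over all tested genes, 0.26 against 0 without that library, and 0.43 against 0.01 with median-of-ratios scaling. Replicate 3 was above both others of its group for 6 of the 7 genes, a share near the 87.0% of all tested genes, and for 7 of the 15 chaperone genes. The median gap between it and the mean of the other replicates was 1.18 over the ATF4/CHOP genes, 0.79 over all tested genes, 0.07 over the degradation genes and 0.02 over the chaperone genes. The markers of macrophages and of tumour and fetal liver were high in the same library, and their part in the ATF4/CHOP values was not tested.

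Atf4, the factor of the branch, stood at 114, 84.7 and 159.6 TPM in S302A_DEN livers and at 85.1, 85.7 and 74.7 TPM in S302A_Ctrl livers. It stood at 118, 98.1 and 86.9 TPM in WT_DEN livers and at 139, 80.0 and 72.6 TPM in WT_Ctrl livers. Atf4 overlapped between DEN-treated and untreated livers in both genotypes. Ddit3, which encodes CHOP, a factor tied to cell death under lasting stress, stood at 11.9, 8.92 and 33.3 TPM in S302A_DEN livers and at 7.32, 7.76 and 8.18 TPM in S302A_Ctrl livers. It stood at 14.6, 14.7 and 13 TPM in WT_DEN livers and at 15.3, 12.3 and 6.52 TPM in WT_Ctrl livers. The knock-in groups of Ddit3 did not overlap, but 2 of the 3 DEN-treated livers lay below every WT_DEN liver. Its knock-in difference was 0.90 (limma adjusted p = 0.297), and 0.37 without S302A_DEN replicate 3 (limma adjusted p = 0.544).

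Asns, the asparagine synthetase gene and a classic ATF4 target, stood at 25.8, 41.3 and 35.3 TPM in S302A_DEN livers and at 1, 7.61 and 14.7 TPM in S302A_Ctrl livers, where 1 stands for 1 TPM or less. It stood at 13.8, 9.31 and 9.39 TPM in WT_DEN livers and at 1, 1.07 and 15.3 TPM in WT_Ctrl livers. The DEN-treated knock-in livers were above all others, and the untreated livers of both genotypes spread from that floor to 15.3 TPM. The knock-in difference of 2.42 ± 0.79 was the largest of the 40 members, with a wide error (SE; limma adjusted p = 0.183), and was 2.38 without S302A_DEN replicate 3 (limma adjusted p = 0.216). Ppp1r15a, whose product GADD34 undoes the translation block, stood at 6.07, 4.21 and 10.6 TPM in S302A_DEN livers and at 7.04, 4.90 and 6.58 TPM in S302A_Ctrl livers. It stood at 5.98, 5.75 and 5.64 TPM in WT_DEN livers and at 5.94, 3.01 and 5.03 TPM in WT_Ctrl livers, so both pairs of groups overlapped.

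The remaining 3 genes of the branch were high in S302A_DEN replicate 3. Atf3, a stress-induced repressor, was at 12.7 TPM there and between 1 and 1.24 TPM in the other 11 libraries. Trib3, a pseudokinase that binds ATF4, was at 25.8 TPM there and at 2.66 and 2.07 TPM in the other S302A_DEN livers, against 5.67, 2.87 and 5.55 TPM in S302A_Ctrl livers. Chac1 was at 4.99 TPM there and between 1 and 2.49 TPM elsewhere. The knock-in difference of Trib3 was 0.28 with replicate 3 and -0.72 without it.

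**Figure D5:**
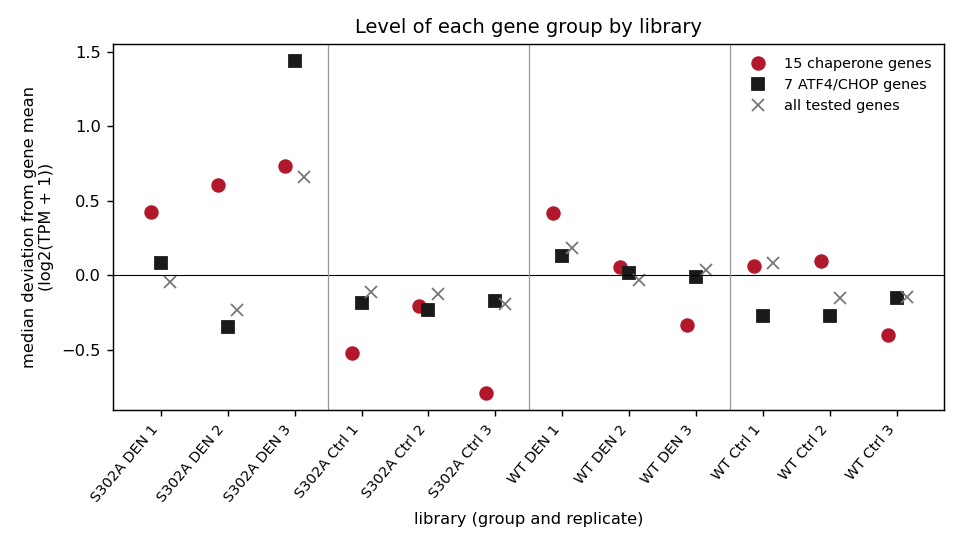
Median over the 15 chaperone genes (circles), the 7 ATF4/CHOP genes (squares) and all 12120 tested genes (crosses) of the deviation from each gene's mean on the log2(TPM + 1) scale, in each library. The chaperone median is 0.43, 0.60 and 0.73 in the S302A_DEN libraries, and the ATF4/CHOP median 0.08, -0.35 and 1.44. The median over all tested genes is -0.05, -0.23 and 0.66 there. In replicate 3 the chaperone median thus lies near that of all genes.

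Genes of ER-associated degradation, which draws misfolded proteins out to the proteasome, had a median knock-in difference of 0.50, and none passed the threshold. Syvn1, which encodes the ubiquitin ligase HRD1, stood at 77.1, 71.2 and 50.7 TPM in S302A_DEN livers and at 26.3, 34.9 and 24.6 TPM in S302A_Ctrl livers. It stood at 53.9, 43.9 and 30.5 TPM in WT_DEN livers and at 52.2, 42.2 and 25.8 TPM in WT_Ctrl livers. The knock-in groups did not overlap. The difference of 1.18 (limma adjusted p = 0.0881) passed the threshold without S302A_DEN replicate 3, at 1.36 (limma adjusted p = 0.0402). Edem1, a mannosidase-like protein that picks glycoproteins for degradation, stood at 32.9, 29.5 and 38.8 TPM in S302A_DEN livers and at 24.7, 27.1 and 18.6 TPM in S302A_Ctrl livers. It stood at 40.4, 34.5 and 34.6 TPM in WT_DEN livers and at 31.2, 27.7 and 20.9 TPM in WT_Ctrl livers. Neither pair of groups overlapped, with differences of 0.51 in the knock-in (limma adjusted p = 0.276) and 0.46 in the wild type (limma adjusted p = 0.608).

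The HRD1 partner gene Sel1l and the channel genes Derl1 and Derl2 had knock-in differences of 0.50, 0.38 and 0.08. Derl3, the third derlin gene and in mouse a transcript of secretory cells, was near the floor, at 2.18, 6.35 and 2.99 TPM in S302A_DEN livers, against 1, 1 and 3.86 TPM in S302A_Ctrl livers. It was at 1, 1.26 and 1 TPM in WT_DEN livers and at 1, 3.14 and 2.5 TPM in WT_Ctrl livers. All pairs of groups that differ by treatment overlapped for Derl3.

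Herpud1 was higher in all 3 WT_DEN livers than in any other liver. Its product, HERP, is an ER membrane protein that organises the HRD1 complex. It stood at 237, 148 and 123 TPM in S302A_DEN livers and at 207, 156 and 154 TPM in S302A_Ctrl livers. It stood at 242, 273 and 282 TPM in WT_DEN livers and at 129, 167 and 153 TPM in WT_Ctrl livers. The wild-type groups did not overlap and the knock-in groups did. The wild-type difference was 0.83 ± 0.24 (SE; limma adjusted p = 0.278), and it passed the threshold when S302A_DEN replicate 3 was left out of the common fit (limma adjusted p = 0.0393) and in a fit of the wild-type libraries alone. The knock-in difference was -0.07, and the interaction of -0.90 was the single negative one at an unadjusted p under 0.05 (limma adjusted p = 0.759).

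Translocon and processing genes, whose products thread new chains into the ER and trim and fold them, had a median knock-in difference of 0.74. Fkbp11 (chr15:98724366-98728198, minus strand), a prolyl isomerase gene of secretory cells, stood at 32.5, 44.4 and 85.5 TPM in S302A_DEN livers and at 11, 13.9 and 17.1 TPM in S302A_Ctrl livers. It stood at 15, 10.6 and 15.2 TPM in WT_DEN livers and at 25, 18.1 and 18.7 TPM in WT_Ctrl livers. All DEN-treated knock-in livers were above every other liver, and all DEN-treated wild-type livers were below the untreated ones. The knock-in difference was 1.78 ± 0.32 (SE; limma adjusted p = 0.0314, and 0.0096 to 0.172 over the alternatives), and 1.40 without S302A_DEN replicate 3 (limma adjusted p = 0.0156). In the wild type the difference was -0.57 (limma adjusted p = 0.701).

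Fkbp11 and Derl3 are also transcripts of plasma cells. Of the 9 B-lineage markers found, 5 were at the floor in all 12 libraries, among them Mzb1, Pou2af1, Tnfrsf17 and Ms4a1. In marker sums a value at the floor counted as 0. Summed over the 9, the level was 29.8 to 81.1 TPM in S302A_DEN livers, 42.9 to 47.7 TPM in S302A_Ctrl livers, 65.3 to 84.4 TPM in WT_DEN livers and 39.5 to 69.1 TPM in WT_Ctrl livers. Sdc1, which hepatocytes also express, carried most of this sum, and the other 8 markers summed to 1.13 to 6.25 TPM in S302A_DEN livers, 1.17 to 6.13 TPM in S302A_Ctrl livers, 0 to 2.29 TPM in WT_DEN livers and 2.01 to 5.68 TPM in WT_Ctrl livers. Of 8 exocrine pancreas markers, 6 were at the floor in all 12 libraries. The sum over the 8, most of it Cela1, was 39.4 to 76.2 TPM in S302A_DEN livers and 33.4 to 45.6 TPM in S302A_Ctrl livers. It was 29.0 to 31.9 TPM in WT_DEN livers and 31.3 to 37.05 TPM in WT_Ctrl livers.

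Sec61b, a subunit of the translocation channel, stood at 185, 149 and 248 TPM in S302A_DEN livers and at 102, 133 and 113 TPM in S302A_Ctrl livers. It stood at 184, 154 and 145 TPM in WT_DEN livers and at 141, 139.6 and 116 TPM in WT_Ctrl livers. Neither pair of groups overlapped, and the differences were 0.72 in the knock-in (limma adjusted p = 0.141) and 0.28 in the wild type (limma adjusted p = 0.844). The channel gene Sec61a1, the translocon-associated genes Ssr1 and Ssr3 and the signal peptidase gene Sec11c had knock-in differences of 0.65, 0.86, 0.74 and 0.80. Fkbp2, another ER prolyl isomerase gene, had 0.36. S302A_DEN replicate 3 was the highest of its group for all 7 genes, and without it these 5 differences were 0.55, 0.55, 0.35, 0.52 and 0.17.

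After DEN in the wild type (WT_DEN against WT_Ctrl) the median of the set lay close to that of all genes. None of the 40 members passed the threshold in limma, 1 (Herpud1) did so at an unadjusted p under 0.05, as did 8.26% of all tested genes, and 0.132% of all tested genes were called. The median difference was 0.15 over the members and 0.13 over the chaperone genes, against 0.13 over all tested genes. In 8 members all WT_DEN libraries were above all WT_Ctrl libraries, a share near the 21.7% of all tested genes. These 8 were P4hb, Atf6, Eif2ak3, Atf3, Herpud1, Edem1, Derl1 and Sec61b. With median-of-ratios scaling the chaperone median turned to -0.05.

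In 3 of the 4 groups 1 library was the highest or the lowest for all 15 chaperone genes. WT_DEN replicate 1 was the highest and replicate 3 the lowest of its group for all 15 genes. WT_Ctrl replicate 3 was the lowest for all 15, and S302A_Ctrl replicate 2 the highest for all 15. Over all tested genes the same libraries held those ranks for 7865, 3360, 4970 and 4276 of 12120 genes. In S302A_DEN no library led, with the highest value in replicates 1, 2 and 3 for 1, 7 and 7 of the 15 genes.

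Averaged over both genotypes, DEN went with a rise of Hspa5, Manf and Pdia4, which were 3 of the 40 members, while 1.34% of all tested genes were called. The average differences were 0.92 for Hspa5 (limma adjusted p = 0.0484), 1.22 for Manf (limma adjusted p = 0.0361) and 0.81 for Pdia4 (limma adjusted p = 0.0466). Without S302A_DEN replicate 3 Creld2, Dnajb11 and Xbp1 joined them, and without S302A_DEN replicate 2 Creld2, Hyou1, Dnajb11 and Sec61b did, where 5.55% and 8.59% of the genes tested were called. All 3 were kept without S302A_Ctrl replicate 2 and Manf alone without WT_Ctrl replicate 1. None of the 3 was called when any of the other 8 libraries was left out, though Asns was without WT_Ctrl replicate 3. None was called when the filter asked for only 1 library above 1 TPM, and with median-of-ratios scaling Manf alone was.

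After DEN the knock-in was set against the wild type (S302A_DEN against WT_DEN), a comparison that shares the S302A_DEN libraries with the first. Fkbp11 was the 1 member called, with a difference of 1.82 ± 0.32 (SE; limma adjusted p = 0.038), while 0.38% of all tested genes were called. It kept its call without S302A_DEN replicate 3 (1.44, limma adjusted p = 0.00918), S302A_DEN replicate 1, WT_Ctrl replicate 1 or WT_Ctrl replicate 2, and lost it without each of the other 8 libraries, with adjusted p of 0.00638 to 0.214 over all alternatives in limma. It also lost its call when the filter asked for only 1 library above 1 TPM and in a fit of the DEN-treated livers alone. The chaperone median was 0.60, and 0.55 without S302A_DEN replicate 3, against 0.07 and -0.20 over all tested genes. In 15 members every S302A_DEN library was above every WT_DEN library, with 3.23% of all tested genes so. Of these, 10 were chaperone genes, and Atf6, Asns, Derl3, Sec11c and Fkbp11 were the others. Herpud1 and Derl2 were the members with all S302A_DEN libraries below all WT_DEN libraries, a share near the 6.19% of all tested genes.

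In untreated livers (S302A_Ctrl against WT_Ctrl) no member passed the threshold in limma, 1 (Pdia6, with a difference of -0.52) had an unadjusted p under 0.05, as did 1.48% of all tested genes, and 0.033% of all tested genes were called. All 15 chaperone genes had a lower mean of log values in S302A_Ctrl livers, with differences of -0.80 for Sdf2l1 to -0.19 for P4hb. Their median was -0.43, against -0.07 over all tested genes. The groups overlapped for 14 of the 15, and P4hb and Fkbp11 were the members with all S302A_Ctrl libraries below all WT_Ctrl libraries, as 5.27% of all tested genes were. The S302A_Ctrl libraries also enter the knock-in DEN difference, so a low level in them and a high level in S302A_DEN livers both add to it. The chaperone sums given above place S302A_DEN livers at 3936 TPM and WT_DEN livers at 2853 TPM, with S302A_Ctrl livers at 1940 TPM below WT_Ctrl livers at 2507 TPM.

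The interaction asks whether the DEN difference itself differed between the genotypes. No member passed the threshold in limma, and 0.0413% of all tested genes were called. At an unadjusted p under 0.05 there were 15 positive and 1 negative members, with 5.06% of all tested genes so in either direction. Of the 15, 11 were chaperone genes, whose median interaction was 1.00, against 0.14 over all tested genes and 0.57 over the ATF4/CHOP genes. Without S302A_DEN replicate 3 these medians were 0.96, -0.13 and 0.01. Fkbp11 had the largest member value, 2.35 ± 0.45 (SE; limma adjusted p = 0.175), and passed the threshold without S302A_DEN replicate 3 (1.97, limma adjusted p = 0.0254) and with median-of-ratios scaling.

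Neighbouring pathways were read from other lists of genes. Of 21 further ER folding genes, Pdia5, a disulfide isomerase gene, rose after DEN in the knock-in, by 0.89 (limma adjusted p = 0.0431), and the median was 0.55. Of all tested genes 0.619% were called. The median was 0.32 without S302A_DEN replicate 3 and 0.24 with median-of-ratios scaling. Replicate 3 was above both others of its group for 20 of the 21. Averaged over genotypes, Erp29 and Pdia5 were called (limma adjusted p = 0.0361 and 0.0435), while 1.34% of all tested genes were. Of 16 further degradation genes, 24 further translocon, signal peptidase and oligosaccharyltransferase genes and 19 measured COPII transport genes, which carry cargo out of the ER, none was called in limma. At an unadjusted p under 0.05 there were 5, 14 and 9, with 16.4% of all tested genes so, and the medians were 0.45, 0.67 and 0.51. Without S302A_DEN replicate 3 their medians were 0.19, 0.33 and 0.29, beside 0 over all genes. There 2 genes of each list were called, with 2.43% of the genes tested. With median-of-ratios scaling 3, 5 and 3 were called, with 5.37% of all tested genes. Replicate 3 was above both others of its group for 15 of 16, 24 of 24 and 19 of 19 of these genes, as for 87.0% of all tested genes.

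Of 23 measured further ATF4 targets, all had a higher mean of log values in S302A_DEN livers, with a median difference of 0.97, near the 1.04 of the chaperone genes. This median was 0.32 without S302A_DEN replicate 3, with 4 of 22 called, where 2.43% of the genes tested were. With median-of-ratios scaling it was 0.67, with 7 called against 1 of the chaperone genes, where 5.37% of all tested genes were. In the fit of all libraries Psph, a serine synthesis gene, was the 1 that rose in the knock-in. It stood at 8.38, 9.05 and 18 TPM in S302A_DEN livers and at 3.08, 3.83 and 3.14 TPM in S302A_Ctrl livers, a difference of 1.49 (limma adjusted p = 0.0332). Averaged over genotypes, Psph, Fgf21, Ddit4 and Wars rose. Fgf21, a liver hormone, stood at 13.3, 5.84 and 73.0 TPM in S302A_DEN livers and at 1.54, 2.51 and 2.09 TPM in S302A_Ctrl livers. It stood at 17.4, 9.43 and 5.24 TPM in WT_DEN livers and at 1.35, 1.16 and 1 TPM in WT_Ctrl livers. The Fgf21 groups did not overlap in either genotype.

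Of 12 cytosolic heat shock genes, Hspa8, the constitutive cytosolic Hsp70 gene, rose in the knock-in, and Hspa8 and Stip1 rose on average. Of all tested genes 0.619% and 1.34% were called in these 2 comparisons. Hspa8 stood at 1138, 831 and 1753 TPM in S302A_DEN livers and at 502, 392 and 411 TPM in S302A_Ctrl livers. It stood at 976, 1008 and 1281 TPM in WT_DEN livers and at 761, 632 and 447 TPM in WT_Ctrl livers. The list had a median knock-in difference of 1.06, close to that of the ER chaperones. With median-of-ratios scaling the median was 0.75, against 0.72 for the ER chaperones. There 5 of the 12 were called against 1 of the 15 ER chaperones, where 5.37% of all tested genes were. The heat shock median was 0.82 without S302A_DEN replicate 3. Of 10 mitochondrial chaperone and protease genes none was called in limma, 2 had an unadjusted p under 0.05, a share near the 16.4% of all tested genes, and their median of 0.32 was -0.05 without that library.

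Other measured features also differed between groups. Summed bile duct markers were 64.6 to 153 TPM in S302A_DEN livers against 19.6 to 22.6 TPM in S302A_Ctrl livers, and 24.4 to 33.6 TPM in WT_DEN livers against 21.6 to 38.6 TPM in WT_Ctrl livers, with Krt7 and Cftr at the floor in all 12 libraries. Most of the sum was Spp1, which encodes the secreted protein osteopontin, at 59.0, 55.3 and 122 TPM in S302A_DEN livers and 17.1, 13.7 and 14.9 TPM in S302A_Ctrl livers. The other 6 markers summed to 9.28 to 30.5 TPM in S302A_DEN livers and 5.53 to 6.8 TPM in S302A_Ctrl livers. Of the 13 clock output genes 12 were measured. On average over genotypes 2 were called higher and 3 lower after DEN, while 1.34% of all tested genes were called. Nfil3 was higher by 1.74 (limma adjusted p = 0.00479) and Arntl by 1.96 (limma adjusted p = 0.0221). Dbp had a difference of -3.30 (limma adjusted p = 0.0191) and Nr1d2 of -0.98 (limma adjusted p = 0.0335). Summed, the 13 clock output genes stood at 101 to 120.5 TPM in S302A_DEN livers and 178 to 293 TPM in S302A_Ctrl livers. The sum was 123 to 156 TPM in WT_DEN livers and 104 to 227 TPM in WT_Ctrl livers. Genes that rose and genes that fell both enter it. The part of either in the chaperone values was not tested.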

How the data were processed

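RNA was isolated from liver with a column kit and TruSeq libraries were sequenced (Illumina HiSeq), per the protocols in the labels. The authors deposited TPM per gene symbol, estimated with kallisto against mm10 per the submitters' processing notes, and the version and annotation are not given in the sources used here. No value lay below 1 and 17258 of 31253 symbols stood at 1 in all 12 libraries, so a value of 1 was read as 1 TPM or less. Sums over markers and over clock output genes left out values at 1, whereas sums over the chaperone genes used every value as deposited. The sequencing depth of a library is unknown from TPM.

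Genes above 1 TPM in at least 3 of 12 libraries (12120) were fitted as log2(TPM + 1), a pseudocount of 1, with limma 3.58.1 in R 4.3.3. One linear model of the 4 groups used empirical Bayes moderation with a trend and left 8 residual degrees of freedom. It gave 6 contrasts, two-sided, with Benjamini-Hochberg adjustment across the 12120 genes and a threshold of 0.05. Differences of low genes are understated on this scale. The fit was also run on simulated data, drawn gene by gene without a shift shared by a whole library. That run therefore cannot show how the fit handles a library such as S302A_DEN replicate 3.

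The members, their branches and the other lists were chosen with earlier results of these data known, so medians and counts over them are descriptions without a test. Values in every library were given for members called in any contrast, for Hspa5, Xbp1, Atf6, Ern1, Eif2ak3, Atf4 and Ddit3, and for the 2 members of each branch with the smallest p in each DEN contrast. Of other lists at most 4 genes with the smallest p in the average DEN contrast were eligible. Promoter windows and strands came from RefSeq (GRCm38.p6) and gene coordinates from GENCODE on the same build. Alternatives were a pseudocount of 0.1, no filter, a filter above 5 TPM, median-of-ratios scaling, a fit of only the libraries compared, moderation set to robust, the replicate number as a block, and each library left out in turn. No 2 of the 66 library pairs were identical.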

Additional observations from a re-analysis of the deposited data

Results flagged for a closer look

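Fkbp11 had DEN differences of opposite sign in the 2 genotypes, with every S302A_DEN library above every S302A_Ctrl library (difference 1.78 on the log2(TPM + 1) scale) and every WT_DEN library below every WT_Ctrl library (difference -0.57, which did not pass the threshold, limma adjusted p = 0.701). The difference between the genotypes was tested as the interaction, 2.35, and did not pass the threshold (limma adjusted p = 0.175, and 0.0254 to 0.429 over the alternatives).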

How the results depend on the processing

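Counts of calls depended on the processing more than the direction of the chaperone genes did. The median chaperone difference after DEN in the knock-in was 0.93 to 1.16 when 1 library was left out and 0.72 with median-of-ratios scaling. The ATF4/CHOP median was 0.26 to 1.06 over the same leave-outs. In the wild type the chaperone median was -0.06 to 0.36 and the ATF4/CHOP median 0.09 to 0.39. Of the single-gene values recomputed under the alternatives, 2014 kept their side of the threshold, 93 lost and 21 gained a call, and none that was called changed sign. The cause of the moves was not tested. TPM gives no depth, so no limit of detection can be stated.

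Leaving out 1 library at a time gave these ranges of limma calls. After DEN in the knock-in there were 0 to 10 members and 16 to 335 genes, and after DEN in the wild type 0 to 1 members and 1 to 258 genes. For the average DEN difference there were 0 to 7 members and 17 to 1037 genes. For the knock-in against the wild type there were 0 to 1 members and 6 to 700 genes after DEN, and 0 members and 0 to 12 genes in untreated livers. For the interaction there were 0 to 1 members and 2 to 75 genes.

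When the filter asked for only 1 library above 1 TPM, no member was called in any contrast, 0 of 40. The genes called were then 35 for DEN in the knock-in, 3 for DEN in the wild type, 86 for the average, 28 after DEN and 0 in untreated livers. Above 5 TPM, 12 members and 132 genes were called for DEN in the knock-in, and 5 members and 210 genes for the average. Median-of-ratios scaling gave 3 members and 651 genes for DEN in the knock-in, 1 member and 708 genes for the average, 210 genes after DEN, and 1 member and 12 genes for the interaction. Fits of a contrast's own libraries gave 1 member and 17 genes for DEN in the knock-in, 1 member and 147 genes for DEN in the wild type, 0 members and 4 genes after DEN, and 2 genes in untreated livers.

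The replicate numbers were not shown to pair the samples. Of 18 pairs with the same number, 5 had a correlation of deviations above 0.1 (range -0.19 to 0.28), and 7 of 12 libraries correlated best with their own number. With a replicate block 9 members and 60 genes were called for DEN in the knock-in. The block gave 5 genes for DEN in the wild type and 87 for the average, where Pdia4 lost and Creld2 gained a call.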
